A study of Mus musculus with 2 samples.

Results

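Interleukin-17A (IL-17A) and interleukin-21 (IL-21) are cytokines of helper T cells. The genes described here are those for these 2 cytokines and for 6 receptors. Of the receptors, that encoded by Ccr6 senses a chemokine, and the others sense the 2 cytokines or help induce them. The set comprised Il17a, Il21, Il21r, Il17ra, Il6ra, Il6st, Il1r1 and Ccr6, chosen by name with earlier results of these data known. Every probe set (short probes read together as 1 signal) annotated to exactly 1 of these genes was taken. This gave 15 probe sets of 8 genes, out of 34945 probe sets annotated to exactly 1 gene and 18193 genes on the array. The study measured RNA of mouse T cells on 1-colour Affymetrix oligonucleotide arrays, with 1 array for T cells that had met retinal pigment epithelium (RPE), a single sheet of pigmented cells that nourishes the photoreceptors, and 1 array for control T cells that had not. Its title and design state the question, whether RPE suppresses T-helper 17 (Th17) cells. Both samples were labelled as male, of C57BL/6 background and 6 weeks old. The exposed sample was named as T cells in its title and source, but its tissue field named primary cultured RPE. The title of the control named CD4 T cells, and the labels gave no stimulus, culture time, number of animals or cell dose for either sample. Since each group was a single array, no value below could be set against a spread between samples or tested, and the number of arrays limits precision.

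As background, Th17 cells arise when activated CD4 T cells receive IL-6 together with TGF-beta, and IL-1 and IL-21 reinforce the programme. IL-6 binds its receptor chain, encoded by Il6ra, and signals through the shared chain gp130, encoded by Il6st, to the transcription factor STAT3. IL-21 is made by Th17 and follicular helper T cells, and acts back on T cells and on B cells through the receptor encoded by Il21r. IL-17A acts through the receptor encoded by Il17ra on epithelial cells, fibroblasts and other cells, which answer with chemokines that recruit neutrophils. Th17 cells are known in the eye as a cell type of autoimmune uveitis.

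The regions upstream of the start sites of Il17a, Il21 and Il21r are shown first, because these 3 genes gave the lowest differences of the members detected in both samples. Each line gives the 250 bases before the annotated start, read 5′ to 3′ on the gene's own strand, from RefSeq on build GRCm38.p6. The Il17a window is chr1:20730655-20730904 on the plus strand, that of Il21 is chr3:37232637-37232886 on the minus strand, and that of Il21r is chr7:125603179-125603428 on the plus strand. Capitals mark matches, on either strand, to 5 short motifs.
Il17a: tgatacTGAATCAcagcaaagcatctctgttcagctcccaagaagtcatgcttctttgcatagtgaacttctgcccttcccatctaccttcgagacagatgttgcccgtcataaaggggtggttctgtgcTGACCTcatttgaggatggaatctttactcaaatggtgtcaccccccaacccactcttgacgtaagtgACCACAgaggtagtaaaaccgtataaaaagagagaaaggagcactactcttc
Il21: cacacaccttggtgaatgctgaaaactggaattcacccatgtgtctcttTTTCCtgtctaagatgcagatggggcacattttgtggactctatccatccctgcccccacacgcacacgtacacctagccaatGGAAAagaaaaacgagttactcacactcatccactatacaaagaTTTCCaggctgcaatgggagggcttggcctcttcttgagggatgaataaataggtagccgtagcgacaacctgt
Il21r: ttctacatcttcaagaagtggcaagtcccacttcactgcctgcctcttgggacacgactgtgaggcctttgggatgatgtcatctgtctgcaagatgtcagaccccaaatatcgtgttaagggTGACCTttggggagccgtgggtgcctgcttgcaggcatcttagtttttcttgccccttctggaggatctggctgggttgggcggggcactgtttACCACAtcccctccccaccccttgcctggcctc

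The motifs searched were TTCNNNGAA for STAT factors, TGANTCA for AP-1, GGAAA for NFAT, AGGTCA for ROR receptors and TGTGGT for RUNX factors. Over the same window of all 32851 annotated starts, 7.02% held the STAT motif, 6.75% the AP-1 motif, 55.6% the NFAT motif, 14% the ROR motif and 14% the RUNX motif. The Il17a window held 1 AP-1 match, at 244 to 238 bases before the start, 1 ROR match at 120 to 115 and 1 RUNX match at 52 to 47. The Il21r window also held 1 ROR match, at 127 to 122, and 1 RUNX match, at 33 to 28. The Il21 window held 3 NFAT matches, a motif present in most windows, and none of the other 4 motifs. In none of these 3 windows did matches of different motifs overlap. Matches are descriptions of letters and were not tested as binding sites.

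Signals are the deposited linear intensities, already on a common scale, and differences are on the log2 scale, RPE-exposed minus control. A floor was set at the median signal of each array, 16 on the exposed and 15.9 on the control array. Of the 15 member probe sets, 13 exceeded the floor in both samples, 1 exceeded it in control cells only, and 1 in neither. Fewer cells that express a gene and less RNA per cell cannot be told apart in these bulk samples.

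Both cytokine transcripts gave lower signals after exposure to RPE. Il17a, the signature cytokine gene of Th17 cells, had a signal of 233.0 in RPE-exposed T cells, against 814.9 in control T cells (probe set 1421672_at, its only one). That is 3.50-fold lower, a log2 difference of -1.81. The brighter Il21 probe set, 1450334_at, had 326.7 in RPE-exposed T cells and 645.1 in control T cells, 1.97-fold lower, just short of 2-fold. The dimmer one, 1447288_at, had 51.4 in RPE-exposed T cells and 132.8 in control T cells, 2.58-fold lower. Both Il21 probe sets therefore read lower in the exposed cells, with log2 differences of -0.98 and -1.37 that averaged -1.18 ± 0.27 (SD over 2 probe sets, which are not replicates of cells or arrays). The floor was also raised to the 75th percentile of each array, 90.4 on the exposed array. The dimmer probe set's exposed signal lay under that floor, so its value of -0.55 there was a bound set by the floor.

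**Figure D1:**
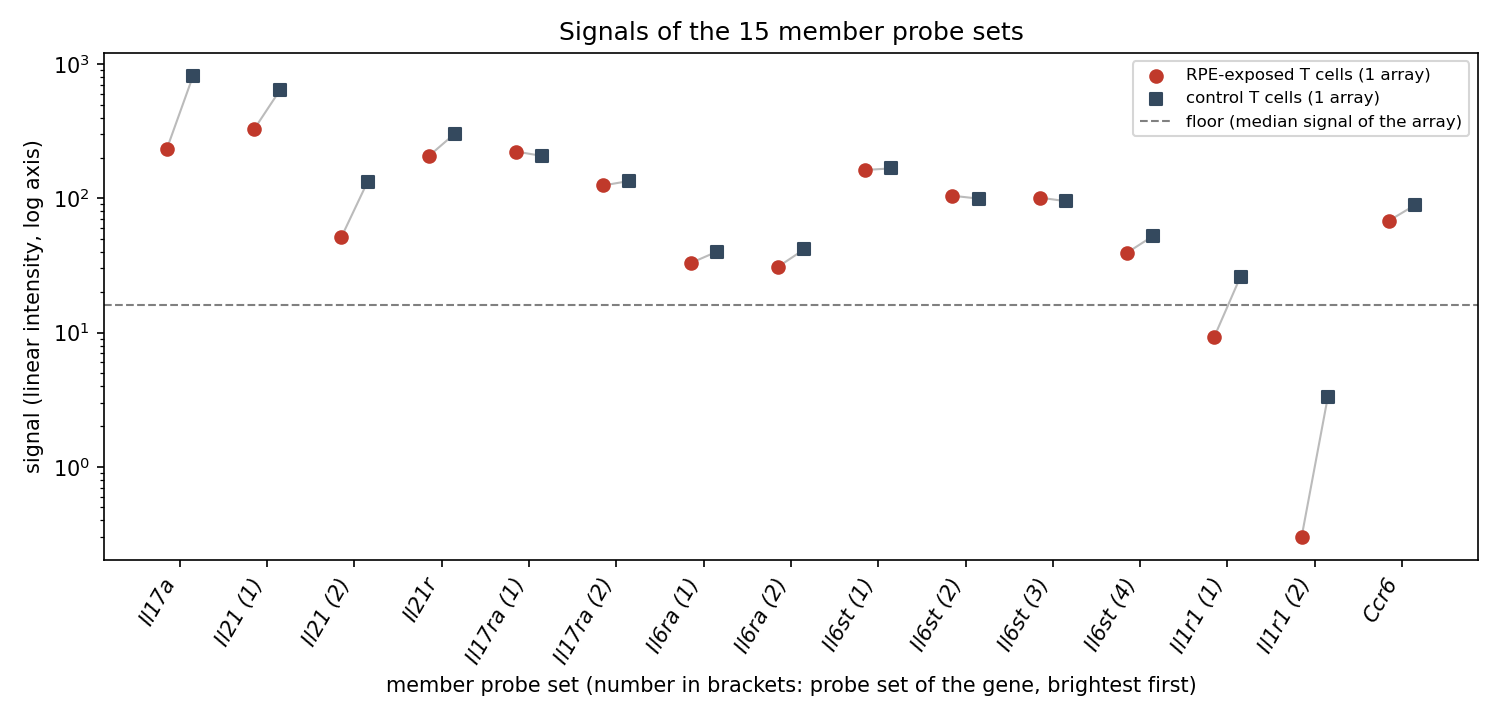
Signal of each of the 15 member probe sets (linear intensity on a log axis) in RPE-exposed T cells (red circles) and control T cells (dark squares), 1 array each, with a grey line joining the pair and a dashed line at the floor. Il17a and both Il21 probe sets show the widest gaps of those detected in both samples, while the pairs of Il17ra and the 3 brighter Il6st probe sets lie close together.

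The place of these values among all measurements was described in the same arrays. Of 20258 probe sets of exactly 1 gene that exceeded the floor in either sample, 0.691% were at least 2-fold lower in RPE-exposed T cells and 0.508% at least 2-fold higher. Among the 14 member probe sets compared, 2 were at least 2-fold lower (14.3%) and 0 were at least 2-fold higher. These were the Il17a probe set and the dimmer Il21 probe set. Because the members were chosen with earlier results of these data known, the 2 shares are descriptions and not a test of the set. The Il17a difference was the 12th lowest of the 20258, and the 7th lowest of the 10157 whose brighter signal was 100 or more. The dimmer and the brighter Il21 probe sets were 39th and 148th from the lowest. Of the 500 probe sets nearest to Il17a in mean level, 1 had a lower difference, and their central 95% ran from -0.42 to 0.42. The corresponding number was 2 of 500 for the brighter and 0 of 500 for the dimmer Il21 probe set.

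Probe sets of the same gene gave a measure of error within the pair of arrays. Their log2 differences had a pooled SD of 0.31 at mean signals under 100 (1746 genes), 0.18 at 100 to 500 (1441 genes) and 0.10 at 500 or more (559 genes). These were genes with more than 1 probe set detected in both samples within the same range of mean signal. The differences of Il17a, both Il21 probe sets, Il21r, Ccr6, the Il6ra probe set 1422270_a_at and the dimmest Il6st probe set were larger than the SD at their level, and those of the other 6 member probe sets detected in both samples were not. Passing the SD was a low bar for the dim probe sets. Of the 500 probe sets nearest in level, 63 had a lower difference than Ccr6. The corresponding numbers were 75 for that Il6ra probe set and 70 for that Il6st probe set, so these differences were ordinary at their level. For Il17a, both Il21 probe sets and Il21r the numbers ran from 0 to 10. The share of all probe sets that pass the SD was not counted. This SD describes probe sets on 1 pair of arrays and holds no variation between cultures or animals.

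Il21r, which encodes the receptor chain specific for IL-21, was lower by less than the cytokines. Its only probe set, 1450456_at, had 206.1 in RPE-exposed T cells and 303.6 in control T cells, 1.47-fold lower (log2 difference -0.56). Of the 500 probe sets nearest in level 10 had a lower difference. The central 95% of these ran from -0.55 to 0.42, so Il21r lay just outside it on the lower side. B cells express Il21r too, and the B-cell markers described below were lower in the same sample. Their part in the Il21r difference was not tested.

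Il17ra, which encodes the receptor chain through which IL-17A acts, differed little. The brighter probe set, 1420905_at, had 223.1 in RPE-exposed T cells and 206.9 in control T cells, a log2 difference of 0.11. The dimmer one, 1420904_at, had 124.7 in RPE-exposed T cells and 134.8 in control T cells, a difference of -0.11. The probe sets thus disagreed in sign, and their mean was -0.0018 ± 0.16 (SD over 2 probe sets). Both receptor probe sets were within 1.08-fold, where the cytokine transcript was 3.50-fold lower.

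Il6ra, which encodes the chain that binds IL-6, was dim. Its probe set 1452416_at had 32.9 in RPE-exposed T cells and 40.0 in control T cells (log2 difference -0.28), and 1422270_a_at had 30.8 in RPE-exposed T cells and 41.6 in control T cells (-0.43). Both read lower in the exposed cells, at -0.36 ± 0.11 (SD over 2 probe sets), and both lay inside the central 95% of probe sets at their level. That range ran from -0.88 to 0.83 for the first and from -0.84 to 0.84 for the second.

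Il6st, the signal-transducing chain shared by the receptors of IL-6, leukemia inhibitory factor, oncostatin M and IL-27, had 4 probe sets. The brightest, 1452843_at, gave 162.6 in RPE-exposed T cells and 167.1 in control T cells (-0.04). The next, 1437303_at, gave 104.5 in RPE-exposed T cells and 99.5 in control T cells (0.07), and 1460295_s_at gave 101.2 in RPE-exposed T cells and 95.2 in control T cells (0.09). The dimmest, 1421239_at, read lower, with 39.3 in RPE-exposed T cells and 52.5 in control T cells (-0.42). The 4 probe sets averaged -0.07 ± 0.24 (SD), and none left the central 95% of probe sets at its level.

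The remaining receptors were dim. Il1r1, which encodes the signalling receptor for IL-1, was above the floor in control T cells only. Its probe set 1448950_at had 9.3 in RPE-exposed T cells and 26.1 in control T cells, at least 1.63-fold lower against the floor (log2 difference -1.49 with no floor). The other, 1459777_at, had 0.3 in RPE-exposed T cells and 3.3 in control T cells, under the floor on both arrays, so no fold is given. Ccr6, which encodes the chemokine receptor carried by Th17 cells and also by B cells, had 68.1 in RPE-exposed T cells and 89.1 in control T cells (1450357_a_at, its only probe set). Its log2 difference of -0.39 lay inside the central 95% at its level, -0.71 to 0.65.

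**Figure D2:**
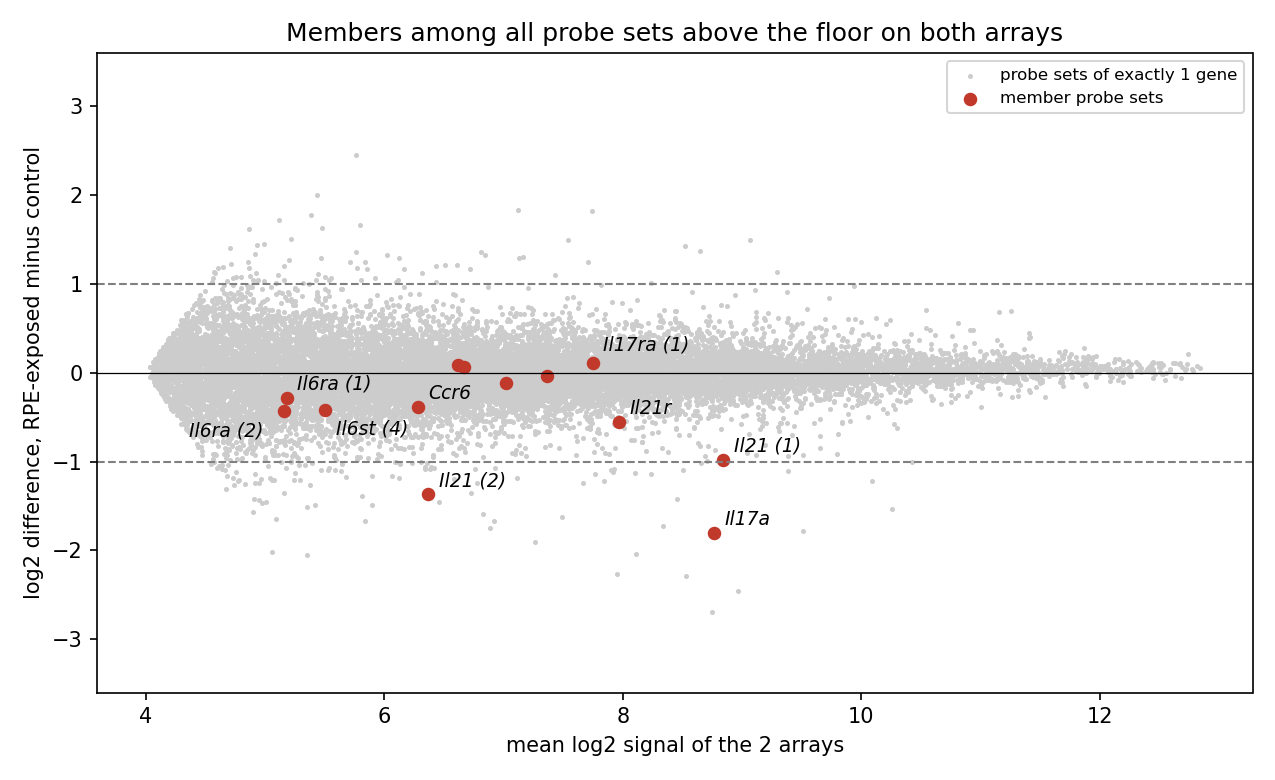
Log2 difference (RPE-exposed minus control) against the mean log2 signal of the 2 arrays, for every probe set of exactly 1 gene above the floor on both arrays (grey) and for the 13 such member probe sets (red), with dashed lines at 2-fold. Il17a (-1.81) and the dimmer Il21 probe set (-1.37) lie under the lower line, the brighter Il21 probe set (-0.98) lies just above it, and the receptors lie between -0.56 and 0.11.

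In order of the log2 difference of the gene's brightest probe set, the 7 member genes detected in both samples ran from Il17a (-1.81) through Il21 (-0.98), Il21r (-0.56), Ccr6 (-0.39), Il6ra (-0.28) and Il6st (-0.04) to Il17ra (0.11). Of the 13 member probe sets detected in both samples, 10 had a negative difference and 3 a positive one, and their median was -0.39. Over all 18217 such probe sets of exactly 1 gene the median was -0.0084, and 51.4% were negative. The steps from Il17a to Il21 and from Il21 to Il21r were larger than the probe-set SD at their level, whereas the later pairs of neighbours differed by less than it, except that the step between Il6ra and Il6st exceeded the SD at the level of Il6st but not that at the dimmer level of Il6ra. The genes with the difference nearest to that of Il17a, among 6523 genes whose brighter signal was 100 or more, were Nr4a3 (-1.78), Adamtsl4 (-1.67) and Csf2 (-1.67). Those nearest to Il21 were Cd24a (295.8 in RPE-exposed T cells and 589.8 in control T cells), Ifng (-1.01) and Tnfrsf13c (-0.95). This likeness rests on 2 arrays, thus on a single difference per gene.

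Genes around the members were described in 9 lists, which together named 134 further genes. Of these, 120 were measured and the other 14 are not analysed here, and 89 exceeded the floor in either sample. Among the 89 genes, 7 (7.87%) were at least 2-fold lower in RPE-exposed T cells and 0 were at least 2-fold higher, where 0.628% of all 10995 genes compared were at least 2-fold lower and 0.437% at least 2-fold higher. Their median difference was -0.17, with 60 of 89 negative. Over all genes compared the median was -0.0096, and 51.6% were negative. The lists too were chosen with earlier results of these data known, so these contrasts are descriptions and not a test. With the floor at the 75th percentile, 1 pathway gene was at least 2-fold lower.

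Other ligands and receptors of the IL-17 family were near or under the floor. Of the 7 measured, 2 were above it. Il17re, which encodes the receptor chain for IL-17C, had 42.9 in RPE-exposed T cells and 57.2 in control T cells (-0.42). Il17rb, the receptor chain for IL-25, had 16.8 in RPE-exposed T cells, close to the floor, and differed by 0.07. The genes Il17b, Il17d, Il25, Il17rc and Il17rd were under the floor on both arrays.

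Genes that carry the signal of the IL-17 receptor had a median of -0.14 over 17 genes above the floor, with 0 at least 2-fold different. The NF-kappaB subunit gene Rela had 561.4 in RPE-exposed T cells and 641.6 in control T cells (-0.19), the kinase adaptor gene Tab2 gave -0.14, and the RNA-binding protein gene Elavl1 gave 0.11. The 4 Elavl1 probe sets detected in both samples averaged -0.13 ± 0.31 (SD), the opposite sign. At either end, and picked after the values were seen, were Tnfaip3, a feedback inhibitor of NF-kappaB (385.3 in RPE-exposed T cells and 720.6 in control T cells, -0.90), and Traf3ip2, which encodes the receptor's adaptor Act1 (179.2 in RPE-exposed T cells and 133.4 in control T cells, 0.43).

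Genes known as targets of IL-17 in epithelial cells and fibroblasts were mostly undetected, with 12 of 17 under the floor on both arrays. Of the 5 others, 4 exceeded the floor in both samples and had negative differences with a median of -1.07, and Cxcl2 exceeded it in control cells only, so that its sign follows from the floor. The median over the 5, with Cxcl2 at its bound, was -0.80. Raising the floor to the 75th percentile (90.4 exposed, 93.1 control) left only Csf2 above it, in control cells. The list's value of -0.17 under that setting rests on Csf2 alone, with its exposed signal set to the floor. It is therefore not comparable with the medians over several genes. Csf2, which encodes the cytokine GM-CSF and which T cells themselves make, had 32.1 in RPE-exposed T cells and 101.8 in control T cells, 3.17-fold lower. Ptgs2, the inducible cyclooxygenase gene, had 24.1 in RPE-exposed T cells and 68.8 in control T cells, 2.85-fold lower. The cytokine gene Il6 had 45.4 in RPE-exposed T cells and 70.4 in control T cells (-0.63). The neutrophil chemokine genes Cxcl1 and Cxcl2 were dim, the first with 44.2 in RPE-exposed T cells and 62.3 in control T cells, and the second with 5.8 in RPE-exposed T cells, under the floor, and 27.8 in control T cells.

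Cytokines and partner receptors of gp130 had a median of -0.49 over 6 genes above the floor, all 6 with a negative difference and 0 at least 2-fold different. Lif, the leukemia inhibitory factor gene, had 169.0 in RPE-exposed T cells and 316.7 in control T cells, 1.87-fold lower. Its 2 probe sets averaged -1.28 ± 0.53 (SD). Il27ra, the receptor chain for IL-27, had 148.2 in RPE-exposed T cells and 192.6 in control T cells (-0.38), and the oncostatin M gene Osm had 138.3 in RPE-exposed T cells and 173.7 in control T cells (-0.33).

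The list of JAK-STAT signalling genes of IL-21 and IL-6 also held feedback inhibitors and further transcription factors. It had a median of -0.24 over 21 genes, with 17 negative and 0 at least 2-fold different. Irf4, a transcription factor used by Th17 and follicular helper cells, had 1015.6 in RPE-exposed T cells and 1516.7 in control T cells (-0.58). Its 2 probe sets averaged -0.44 ± 0.20 (SD). Stat4 and the survival kinase gene Pim2 differed little, at 0.11 and -0.04. Of 4 further genes picked after their values were seen, the feedback inhibitor gene Socs3 had 600.1 in RPE-exposed T cells and 1077.4 in control T cells, with 3 probe sets at -0.83 ± 0.015 (SD), and Cish, another feedback inhibitor gene, had 485.1 in RPE-exposed T cells and 925.9 in control T cells (-0.93). The kinase gene Jak1 gave 0.05 and Jak2 gave -0.56.

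Around the IL-1 receptor, differences ran in both directions, with 5 negative and 8 positive among 13 genes and a median of 0.06. Il1b, the cytokine gene, had 57.5 in RPE-exposed T cells and 121.7 in control T cells, 2.12-fold lower. The kinase gene Irak1 gave -0.41, the adaptor gene Myd88 gave 0.12, and the inhibitory receptor gene Sigirr gave 0.04. The 4 Irak1 probe sets averaged -0.26 ± 0.18 (SD). Picked after their values were seen, the decoy receptor gene Il1r2 had 101.2 in RPE-exposed T cells and 161.8 in control T cells (-0.68) and the dim accessory chain gene Il1rap gave 0.08. The largest positive difference of the list, also picked after it was seen, was that of the IL-18 receptor gene Il18r1, with 129.8 in RPE-exposed T cells and 70.4 in control T cells (1.84-fold higher). Its partner chain gene Il18rap had 2 probe sets at 0.59 ± 0.43 (SD), and Il18 exceeded the floor in exposed cells only, with 28.0 in RPE-exposed T cells and 15 in control T cells. Il18rap and Il18 were also picked after their values were seen.

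Other genes of the Th17 programme had a median of -0.20 over 14 genes above the floor, or -0.15 over the 13 detected in both samples, of which 9 were negative. Ahr, which encodes the aryl hydrocarbon receptor, had 71.2 in RPE-exposed T cells and 168.1 in control T cells, 2.36-fold lower. Stat3 gave -0.24, with 4 probe sets at -0.10 ± 0.13 (SD), and the hypoxia factor gene Hif1a had 4080.0 in RPE-exposed T cells and 4068.2 in control T cells. Of the genes of IL-21-producing follicular helper cells, Cxcr5, a follicle-homing receptor that B cells also carry, had 91.7 in RPE-exposed T cells and 208.3 in control T cells, 2.27-fold lower. It was the 1 pathway gene still at least 2-fold lower with the higher floor. The costimulatory receptor genes Icos (-0.04) and Tnfrsf4 (-0.17) and the inhibitory receptor gene Btla (-0.18) differed less, and the list's median over 9 genes was -0.17.

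IL-21 belongs to the cytokines whose receptors share the common gamma chain, and its gene neighbours Il2. Il2, the T-cell growth factor gene, had 14.3 in RPE-exposed T cells, under the floor, and 39.8 in control T cells, at least 2.49-fold lower. Il4, the signature cytokine gene of Th2 cells, had 35.6 in RPE-exposed T cells and 99.6 in control T cells, 2.80-fold lower. The receptor genes of this list differed in both directions. Il2ra had 1482.4 in RPE-exposed T cells and 1200.7 in control T cells (0.30), Il2rb gave 0.21 and Il7r 0.11. Picked after their values were seen, Il4ra had 324.7 in RPE-exposed T cells and 592.8 in control T cells (-0.87, with 2 probe sets at -0.98 ± 0.16 SD), and Il15ra gave -0.32. The 2 Il15ra probe sets averaged -0.10 ± 0.31 (SD). Over 8 genes of the list above the floor, 4 had a negative and 4 a positive difference, with a median of -0.15 in which Il2 stands at its bound. The median was 0.03 over the 7 genes detected in both samples, and 0.11 over the list with the floor at the 75th percentile.

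**Figure D3:**
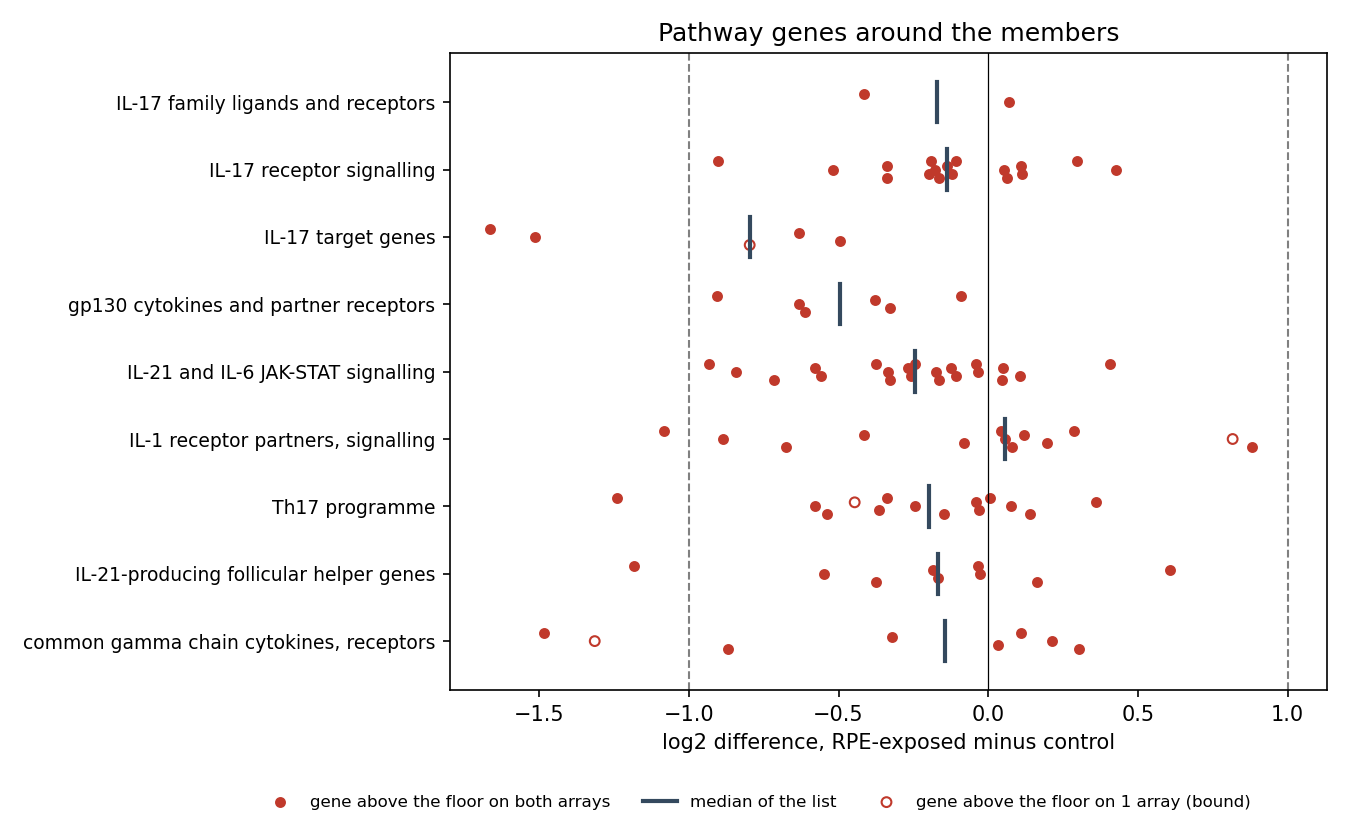
Log2 difference (RPE-exposed minus control) of each gene above the floor in the 9 pathway lists, by its brightest probe set. Filled points lie above the floor on both arrays, open points on 1 array and are bounds, bars are list medians and dashed lines mark 2-fold; no gene lies past 2-fold on the higher side, and 7 genes lie past it on the lower side.

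The median difference of T-cell markers was near 0, whereas CD8 markers were higher in RPE-exposed T cells. B-cell markers, and the dimmer macrophage and dendritic-cell markers, were mostly lower there. All 11 measured T-cell markers were above the floor, with a median of -0.01 and a summed signal of 16484.9 in RPE-exposed T cells and 15261.0 in control T cells. Cd3e had 763.9 in RPE-exposed T cells and 770.9 in control T cells. The brighter Cd3d had 3505.9 in RPE-exposed T cells and 3073.4 in control T cells (0.19), and Cd3g gave 0.21. Cd2 gave -0.07, and of the 11 markers 6 had a negative and 5 a positive difference. The brighter Cd4 probe set had 271.1 in RPE-exposed T cells and 287.0 in control T cells. The 2 Cd4 probe sets disagreed, at 0.26 ± 0.48 (SD). Single differences ran from -0.51 for Trat1 to 0.48 for Cd28. Markers of CD8 T cells were present on both arrays although the control's title named CD4 T cells. Cd8a had 694.6 in RPE-exposed T cells and 568.8 in control T cells (0.29), and Cd8b1 had 983.9 in RPE-exposed T cells and 706.4 in control T cells (0.48), a median of 0.38 over the 2 genes.

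Of 11 B-cell markers measured, 10 were above the floor, and all 10 had negative differences, with a median of -0.60 and a summed signal of 1597.9 in RPE-exposed T cells and 2497.7 in control T cells. The summed signal of 13 macrophage and dendritic-cell markers was 191.6 in RPE-exposed T cells and 265.5 in control T cells. Of these, 8 exceeded the floor in either sample, with a median of -0.48, and 6 in both samples, with the same median. All were dim: the brightest, Cd68, had 30.6 in RPE-exposed T cells and 44.4 in control T cells. Natural killer cell markers had a median of -0.08 over 4 genes. Of 5 neutrophil markers 4 were under the floor on both arrays, and none of the markers in these lists was at exactly 0. The part of B cells and antigen-presenting cells in the differences of Il21r, Ccr6, Cxcr5, Il1b, Il6 and Ptgs2, which such cells also express, was not tested. Of 14 RPE markers 11 were under the floor on both arrays, and the visual-cycle isomerase gene Rpe65 had 2.3 in RPE-exposed T cells and 5.3 in control T cells. The other 3 each passed the floor on 1 array only and lay close to it. Pmel had 18.3 in RPE-exposed T cells and 15.2 in control T cells. Rdh5 had 16.1 in RPE-exposed T cells and 12.7 in control T cells. Mitf had 15.2 in RPE-exposed T cells and 17.3 in control T cells. Whether the exposed sample held RNA of RPE cells was not tested.

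**Figure D4:**
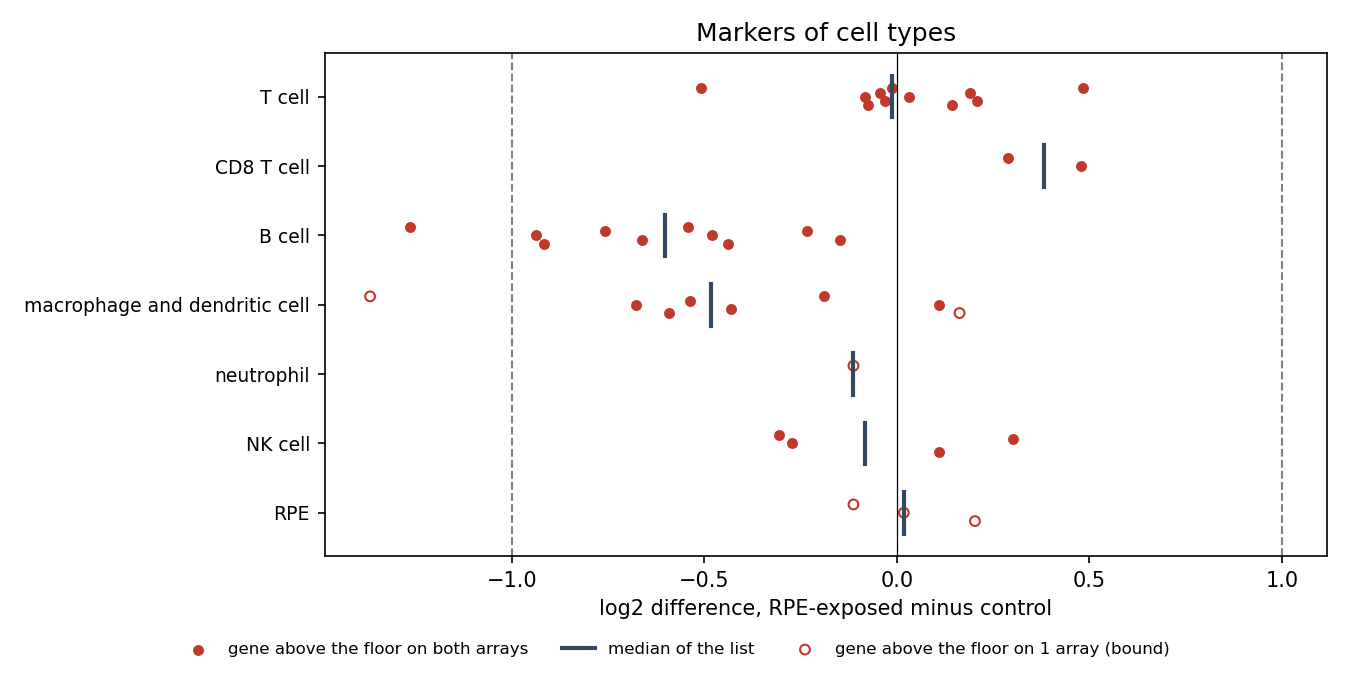
Log2 difference (RPE-exposed minus control) of cell type markers above the floor, by the gene's brightest probe set, with filled points for genes above the floor on both arrays, open points for those above it on 1 array (bounds), bars for list medians and dashed lines at 2-fold. T-cell markers have a median of -0.01 and run from -0.51 to 0.48, both CD8 markers lie above 0, and the 10 B-cell markers all lie under 0 with a median of -0.60.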

How the data were processed

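The authors deposited a linear intensity for each probe set on 1 array of RPE-exposed and 1 of control T cells. Per the labels' protocols, Trizol-extracted total RNA was column-purified and converted through cDNA to biotin-labelled cRNA. The sources used here do not name the summarization software. After trimming 2% of the 45101 probe sets at each end, the mean was 100.0 on each array, so no further scaling was applied. Gene names were taken from GEO's platform annotation.

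Signals under the floor, each array's median over probe sets other than the 64 manufacturer's controls, were set to it, and log2 differences were taken. The probe set with the highest mean signal stood for its gene in the lists. A difference of at least 2-fold was counted. The steps were run on simulated data with changes set larger than 2-fold in probe sets well above the floor. That checks the code and does not show how the steps perform on dim probe sets. Alternatives changed the floor (25th or 75th percentile, or none), added an offset of 16, centred or quantile normalized the arrays, averaged probe sets, or left out those ending in x, s or a, which can match several transcripts.

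The members and lists were chosen with earlier results of these data known. The rule for naming took every member probe set. In each pathway list it took the genes at least 2-fold different and the 3 further genes with the highest mean signal. Other pathway genes above the floor are said to be picked after their values were seen. Cell type markers were named outside this rule, with their values known. Python 3.11.15, numpy 2.4.6, pandas 2.3.3 and matplotlib 3.10.9 were used.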

Additional observations from a re-analysis of the deposited data

How the results depend on the processing

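No paired analysis was possible because each group has 1 array. Under the 6 settings that changed the floor, the offset or the scaling, the Il17a difference ran from -1.81 to -1.74 and that of the brighter Il21 probe set from -0.98 to -0.95. A floor at the 75th percentile gave -0.55 for the dimmer Il21 probe set, a bound because its exposed signal lay under that floor. With that floor 1 member probe set was at least 2-fold lower, against 4 with no floor. The counts moved most with the floor. Over all probe sets, 1139 were at least 2-fold lower and 1238 higher for a floor at the 25th percentile, 29 and 12 at the 75th, 3381 and 3661 with no floor, and 82 and 64 with the offset. Pathway genes at least 2-fold lower numbered 12, 1 and 17 for floors at the 25th and 75th percentiles and for none, and 3 were higher at the 25th percentile and 4 with none. Averaging moved Il21 to -1.18. Il1r1 rests on 1 dim probe set.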
